A study of Bos taurus with 20 samples.

Results

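The genes described here are THBD and 8 other genes of blood coagulation and fibrinolysis, namely PROCR, F3, TFPI, TFPI2, PLAT, PLAU, PLAUR and SERPINE2. They were chosen by symbol and are 9 of the 33063 named genes of the count table, and all 9 passed the filter on low counts that left 12900 genes to test. The 20 RNA samples came from undifferentiated clones of bovine mesenchymal stem cells (MSC). Each was grown from a single cell sorted from a passaged MSC culture. The cultures came from visceral fat of Holstein Friesian x Aberdeen Angus calves in their first months of life. After sorting, part of the medium was conditioned by MSC of the same animal. All clones were expanded in medium with 10% fetal bovine serum and 5 ng/ml basic fibroblast growth factor, with no genetic modification. Adipogenic (A) clones (n = 10) were those that filled with lipid when sister cells were driven to differentiate, and non-adipogenic (N) clones (n = 10) were those that did not. Per the study, these A clones were the 10 that differentiated best by lipid staining, and N clones were matched to them in number within each animal. The clones came from 4 animals: 17 and 20 contributed a single clone of either kind, whereas 22 and 23 contributed 4 A and 4 N clones apiece. A clone is 1 library from 1 founder cell, so the values describe these clones, and most of them share 1 of the latter 2 animals.

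Coagulation starts when tissue factor, the product of F3, binds its plasma protease and leads to thrombin, which forms fibrin. Thrombomodulin (THBD, also CD141) binds thrombin at the cell surface and turns it towards protein C, which is held by the endothelial protein C receptor (PROCR), while TFPI and TFPI2 inhibit proteases of the pathway. Fibrin is removed by plasmin, which tissue and urokinase plasminogen activators (PLAT and PLAU) release from plasminogen. PLAUR anchors urokinase to the cell surface, and SERPINE2 inhibits thrombin and both activators. THBD is known best from endothelium, and several of these genes are also expressed by stromal cells.

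Libraries held 14615493 to 29185355 counts in A clones and 14908802 to 43111345 in N clones, with medians of 16112862 and 16316703.5, so that 3 counts, the floor used here, corresponded to 0.0764 to 0.216 CPM (counts scaled to a common library total). The labelled cell type was checked against 7 MSC markers, all of which were expressed, with summed levels of 3808 to 6290 CPM in A clones and 2788 to 5583 CPM in N clones. ITGB1, the highest of them, was at 2584 ± 604 CPM in A and 2201 ± 652 CPM in N clones. The sums do not show that the N clone 22-5 held THY1 at 0.395, NT5E at 0.508 and ENG at 19.1 CPM. In the other clones these were at least 12.2, 32.1 and 165 CPM. PDGFRB and ITGB1 were also lowest in 22-5, at 59.6 and 1584 CPM, against at least 118.6 and 1659 CPM in the other clones. PDGFRA and CD44 in 22-5 lay within the range of the other clones. No 2 libraries held identical counts. The labels name no sequencing batch. Levels below are CPM scaled by TMM factors and are compared between clones. Exon lengths were not used here, so levels are not compared between genes. A marker called the highest of its list is so by CPM alone. In bulk RNA, a difference in how many cells express a gene and a difference in the RNA per cell cannot be told apart.

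THBD and PLAUR were the members with the largest differences between A and N clones, and PLAT showed a smaller one. These 3 genes were higher in A clones at an adjusted p under 0.05 by edgeR's quasi-likelihood test with animal as a block, whereas 0 of the 9 were lower and 6 did not pass. Of all 12900 genes, 10.3% were higher and 10.3% were lower at this threshold. THBD and PLAUR also passed the fold threshold of 2, which 3.95% of all genes did in the same direction and 1.81% in the other. At an unadjusted p under 0.05 the members that passed were 5, adding F3 and PROCR, while 36.1% of all genes did so. The median log2 fold change of the 9 members was 0.79, against -0.01 over all genes tested. THBD and PLAUR encode CD antigens that the study listed from these same clones, so their direction is not independent evidence. The study also reported the THBD difference by qPCR in a larger set of clones. By flow cytometry of MSC preparations, it found the share of cells positive for CD141 almost negligible. The values here are of RNA and not of surface protein.

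**Figure D1:**
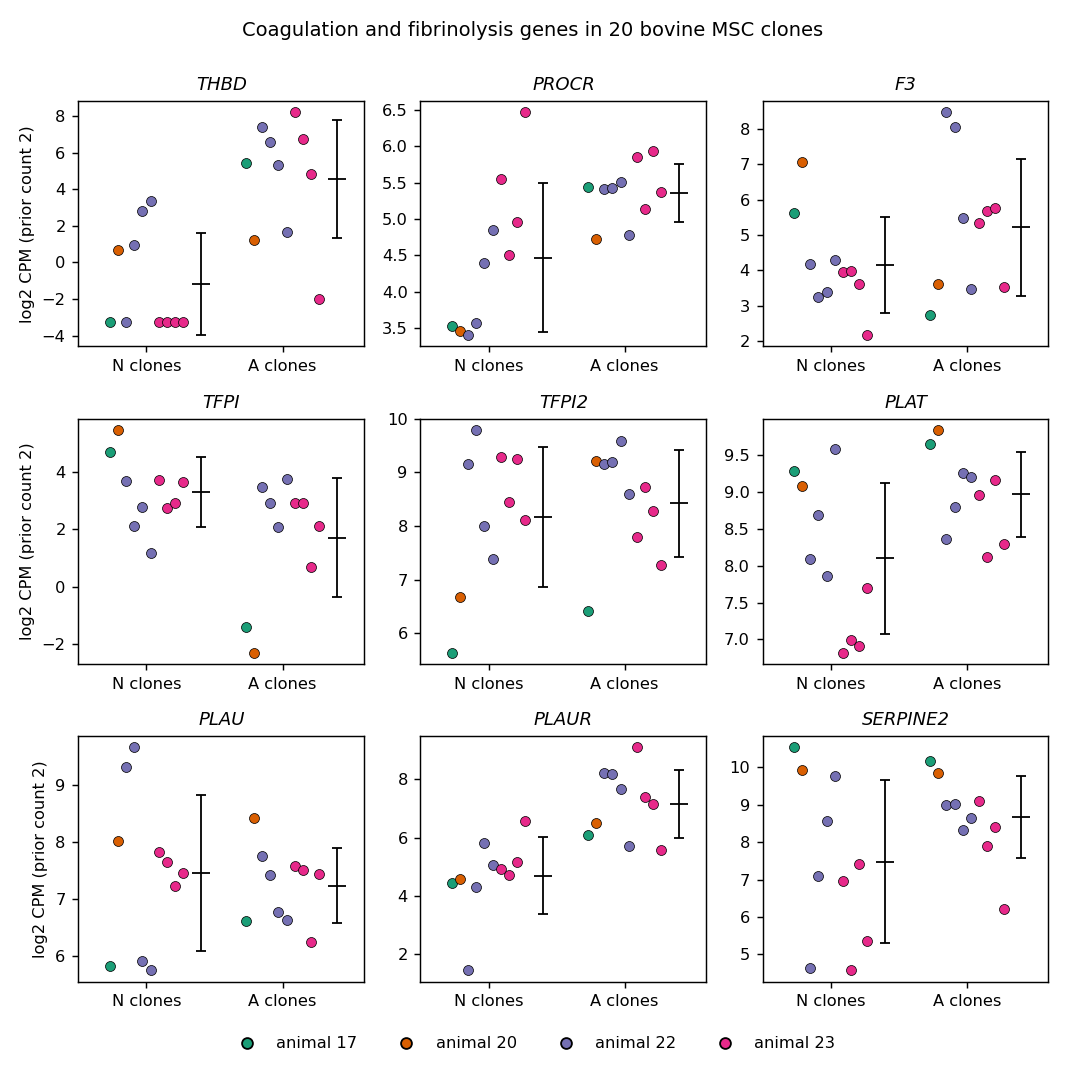
Level of each of the 9 genes in the 10 N and 10 A clones, as log2 CPM with a prior count of 2 on the vertical axis. Each point is a clone coloured by animal, bars give the mean ± SD of the group, and the lowest row of THBD points holds the 6 N clones with 0 counts. THBD and PLAUR sit higher in most A clones, and the A and N clones of every gene overlap.

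THBD was detected in all 10 A clones and in 4 of 10 N clones. In A clones of animal 23 it reached 294.7, 107.4, 28.2 and 0.146 CPM, and in those of animal 22 it reached 169, 94.6, 40.5 and 3.04 CPM. The A clones of animals 17 and 20 were at 42.3 and 2.26 CPM. Among N clones, 0 counts were found in all 4 clones of animal 23, in clone 22-5 and in the clone of animal 17, and the other N clones held 10.3, 6.94, 1.80 and 1.47 CPM. Thus 7 A clones exceeded the highest N clone, while 20-106, 22-121 and 23-108 lay within the N range.

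Mean THBD was 78.2 ± 93.7 CPM in A and 2.05 ± 3.61 CPM in N clones (SD, n = 10 each). The log2 fold change was 5.88 with an SE of 1.47 and a 95% confidence interval of 3.003 to 8.761 (edgeR, adjusted p = 0.0119). This fitted value depends on the prior count, since 6 N clones had no counts. Against the floor of 3 counts per library, THBD was at least 259-fold higher in the A than the N clone of animal 17, and at least 622-fold higher in the mean of the A clones of animal 23. The latter rests on clone 23-14, without which the bound was 261-fold. Clone 23-108, at 4 counts or 0.146 CPM, was over its own floor of 0.110 CPM. It was under 0.173 CPM, the mean floor of the N clones of animal 23 used for the bound. In animal 22, where THBD was detected in 3 of 4 N clones, the means were 76.8 ± 72.1 and 4.76 ± 4.72 CPM (SD, n = 4 each), and the pair of clones from animal 20 differed by 0.58 on the log2 scale. The difference did not pass without animal 23 (adjusted p = 0.155) or with counts summed per animal and condition (adjusted p = 0.342), fits in which 32 and 0 of all genes passed.

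Ordered by animal and condition, THBD was highest in A clones of animal 23 (108 ± 133 CPM) and animal 22 (76.8 ± 72.1 CPM), which did not differ beyond their spread. The single A clone of animal 17 followed, then N clones of animal 22, the A and the N clone of animal 20, and N clones of animals 23 and 17 at 0. Among A clones THBD had a coefficient of variation (CV) of 120%, and without the highest clone, 23-14, the A mean was 54.2 ± 58.0 CPM.

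PROCR, which presents protein C to the thrombin-thrombomodulin complex, was expressed in every clone. It spanned 26.4 to 61.4 CPM in A clones (median 42.7) and 10.4 to 88.6 CPM in N clones (median 21.7), and the highest value of all was in the N clone 23-74. No A clone exceeded the highest N clone. The mean was 42.3 ± 11.3 CPM in A and 28.3 ± 24.2 CPM in N clones, with a log2 fold change of 0.79 (SE 0.287, edgeR adjusted p = 0.0591), which did not pass. Without clone 23-74 the log2 fold change was 1.01 with an adjusted p of 0.00867, and leaving out 22-18, 23-62 or 23-108 also brought it under the threshold (adjusted p = 0.0448, 0.0399 and 0.0498). PROCR varied less among A clones (CV 26.6%) than any other member, against 85.4% among N clones. By animal, its means were 39.6 ± 8.24 CPM in A and 17.9 ± 8.57 CPM in N clones of animal 22, and 48.8 ± 12.7 and 47.2 ± 29.4 CPM in those of animal 23.

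F3, the initiator of coagulation, had the largest CV of CPM among A clones of any member, at 143%. By the ratio of the highest to the lowest A clone, THBD (2010) and TFPI (139) varied more than F3 (54.5). The lowest A clones of THBD and TFPI held only 4 and 2 counts. In A clones F3 spanned 6.54 to 356 CPM (median 42.6), and only 22-11 and 22-16, at 356 and 266 CPM, exceeded the highest N clone. N clones spanned 4.37 to 133 CPM (median 15.6), and the highest were the clones of animals 20 and 17, at 133 and 49.4 CPM. The means were 85.4 ± 122 CPM in A and 28.7 ± 38.7 CPM in N clones, with a log2 fold change of 1.88 (SE 0.863, edgeR adjusted p = 0.127).

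The direction of F3 was not shared by the animals. Its difference of mean log2 CPM, A minus N, was 2.60 in animal 22 and 1.65 in animal 23, but -2.90 in animal 17 and -3.44 in animal 20, whose A clones held 6.54 and 12.2 CPM. With animals 17 and 20 both left out, a choice made after seeing these values, the log2 fold change was 2.65 (SE 0.646, adjusted p = 0.0139). Without animal 22 it was 0.40 (SE 0.975, edgeR adjusted p = 0.809). It was 0.41 (SE 0.748, edgeR adjusted p = 0.748) without the 5 clones over 100 CPM of KRT8, which include 22-11 and 22-16. Leaving out animal 20 gave 2.27 (edgeR adjusted p = 0.0486). Leaving out only 20-15 or only 20-106 gave an adjusted p of 0.0482 each. These amount to nearly the same fit, since the clone that remains has no pair within its animal.

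TFPI, the inhibitor of the tissue factor complex, spanned 0.0980 to 13.6 CPM in A clones (median 5.82) and 2.16 to 44.5 CPM in N clones (median 10.1). It too was divided by animal. The A clones of animals 17 and 20 held 4 and 2 counts, whereas the N clones of the same animals held 474 and 724 and were the highest of all 20. In animal 22 the means were 9.08 ± 4.15 CPM in A and 6.49 ± 4.56 CPM in N clones, and in animal 23 they were 5.14 ± 2.84 and 9.98 ± 3.32 CPM (SD, n = 4 each). The overall log2 fold change was -0.99 (SE 0.752, edgeR adjusted p = 0.356).

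TFPI2, a related protease inhibitor of the matrix, was at 411 ± 221 CPM in A and 390 ± 272 CPM in N clones, spanning 85.8 to 771 and 49.7 to 888 CPM. Its log2 fold change was 0.12 (SE 0.369, edgeR adjusted p = 0.842) and its differences by animal ran from -0.76 in animal 23 to 2.54 in animal 20. The lowest A and the lowest N clone both came from animal 17.

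**Figure D2:**
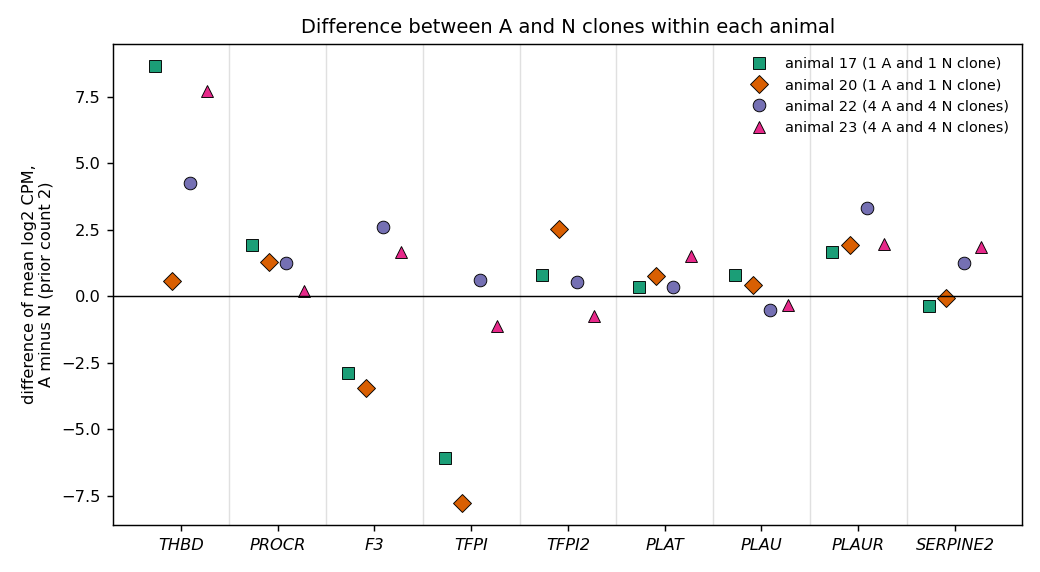
Difference between the mean log2 CPM (prior count 2) of A and N clones within each of the 4 animals, for each gene. A symbol above the line at 0 is a gene higher in A clones of that animal, with 1 clone of each kind in animals 17 and 20 and 4 of each kind in animals 22 and 23. F3 and TFPI lie far below 0 in animals 17 and 20, whereas THBD, PROCR, PLAT and PLAUR lie above 0 in all 4 animals.

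PLAT, the tissue plasminogen activator, was expressed in every clone. It spanned 278 to 921 CPM in A clones (median 535.5) and 113 to 770 CPM in N clones (median 252), and the 2 A clones that exceeded the highest N clone were those of animals 17 and 20. The means were 538 ± 211 and 342 ± 234 CPM, and PLAT was higher in A clones by 0.82 on the log2 scale (SE 0.265, edgeR adjusted p = 0.0362), a fold of 1.77. PLAT was higher in A clones of all 4 animals, as were THBD, PROCR and PLAUR. Across all genes, 33.1% had the same direction in all 4 animals. The call of PLAT was lost in 12 of the 20 fits that left out 1 clone (adjusted p 0.00373 to 0.0705), and without the animal block (0.65, adjusted p = 0.199).

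The means of PLAT in animal 22 were 497 ± 134 CPM in A and 421 ± 245 CPM in N clones, and in animal 23 they were 416 ± 142 and 142 ± 44.7 CPM (SD, n = 4 each). The 4 N clones of animal 23, at 113 to 209 CPM, were the lowest N clones. A test of whether the difference itself was unequal in animals 22 and 23 gave 1.31 on the log2 scale for PLAT (SE 0.522, edgeR p = 0.0246, adjusted p = 0.491) and 10.06 for THBD (SE 4.19, p = 0.0347, adjusted p = 0.517), and 0 of 9 members passed after adjustment. Of 12915 genes in this test, 9.06% had an unadjusted p under 0.05, and 0.031% passed after adjustment. DESeq2 gave 9.30 (SE 2.67, adjusted p = 0.053) for THBD, and 0 members passed there either. The size of both values for THBD depends on how 0 counts are handled, because all 4 N clones of animal 23 held none. By mean log2 CPM with a prior count of 2, THBD differed by 4.28 in animal 22 and 7.71 in animal 23.

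PLAUR, the urokinase receptor, reached 549.8, 167, 142 and 47.7 CPM in animal 23 and 299.9, 293, 204 and 52.7 CPM in animal 22 among A clones, and the A clones of animals 17 and 20 were at 68.2 and 91.2 CPM. N clones spanned 2.60 to 95.5 CPM (median 28.2), with 22-5 lowest and 23-74 highest. Hence 6 A clones exceeded the highest N clone, and the other 4, 1 from each animal, lay within the N range. Mean PLAUR was 192 ± 156 CPM in A and 34.4 ± 25.4 CPM in N clones. The log2 fold change was 2.44 (SE 0.516, edgeR adjusted p = 0.00513), a fold of 5.44, and the differences by animal ran from 1.67 to 3.31. The call held in each of the 20 fits that left out 1 clone (2.12 to 2.68 on the log2 scale). It did not hold in 4 of the other 16 alternatives, where the adjusted p reached 0.225.

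PLAU, the ligand of PLAUR, did not differ beyond its spread. It spanned 75.9 to 342 CPM in A clones (median 171) and 53.7 to 803 CPM in N clones (median 187), with a log2 fold change of -0.55 (SE 0.448, edgeR adjusted p = 0.392). The highest values, 632 and 803 CPM, were in the N clones 22-5 and 22-9, and the remaining 8 lay between 53.7 and 257 CPM. Among the 20 clones, 22-5 thus combined the lowest PLAUR with the second highest PLAU.

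SERPINE2, or protease nexin-1, spanned 74.3 to 1161 CPM in A clones (median 458) and 23.6 to 1483 CPM in N clones (median 154). The means of 503 ± 321 and 421 ± 507 CPM gave a log2 fold change of 0.78 (SE 0.543, edgeR adjusted p = 0.313). The 4 clones of animals 17 and 20 all held 914 CPM or more, in A and N clones alike. In animals 22 and 23 the differences were 1.24 and 1.83 on the log2 scale, against -0.35 and -0.08 in animals 17 and 20.

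**Figure D3:**
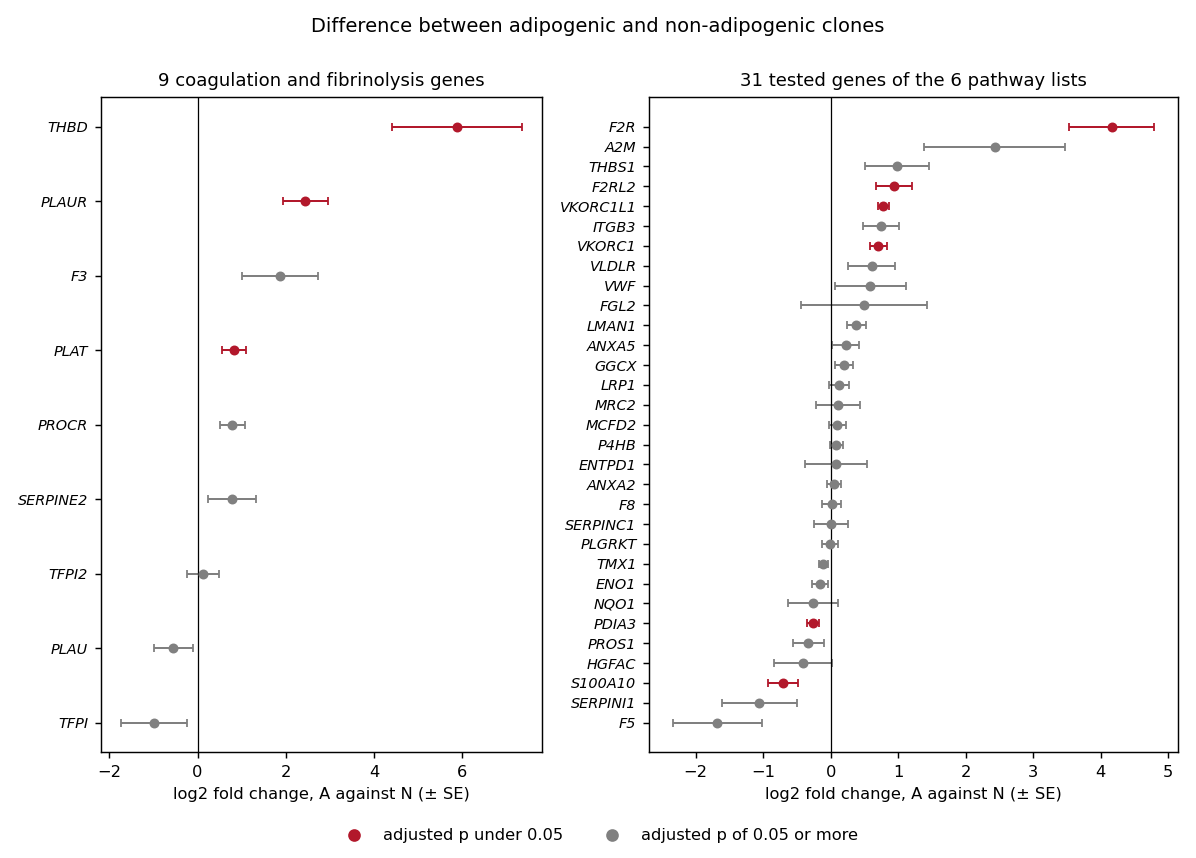
Log2 fold change of A against N clones with its SE on the horizontal axis, for the 9 genes on the left and for 31 further coagulation and fibrinolysis genes on the right. Red points have an adjusted p under 0.05 by edgeR and grey points do not, so that THBD, PLAUR and PLAT are red on the left and 6 genes are red on the right.

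Of the other members, PLAUR was the one that followed THBD most closely. Over the 20 clones, with log2 CPM centred within animal, the Spearman rho with THBD was 0.842 for PLAUR, 0.666 for SERPINE2, 0.603 for PLAT, 0.562 for PROCR and 0.335 for F3. It was 0.0242 for TFPI2, -0.0936 for PLAU and -0.463 for TFPI. These values include the difference between A and N clones and are a description. Clone 23-14 had the highest level of both THBD and PLAUR, and 22-11 and 22-16 followed in PLAUR.

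The 5 genes outside the members whose pattern was most like that of THBD by the same measure were KIAA1024 (0.949), PEG3 (0.942), NCALD (0.936), ZNF274 (0.921) and ERRFI1 (0.920). PEG3, an imprinted zinc finger gene, was at 1.38 ± 0.625 CPM in A and 0.149 ± 0.269 CPM in N clones, and NCALD, a calcium sensor, was at 11.4 ± 4.13 and 2.27 ± 2.14 CPM. For each of these, 8 A clones exceeded the highest N clone. ERRFI1, an inhibitor of EGF receptor signalling, was at 458 ± 152 and 178 ± 116 CPM. KIAA1024 did not pass the test (3.14, SE 1.151, edgeR adjusted p = 0.0615) and was at 13.5 ± 13.5 and 4.16 ± 6.69 CPM. ZNF274 differed by 0.51 on the log2 scale (SE 0.149, edgeR adjusted p = 0.0248).

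**Figure D4:**
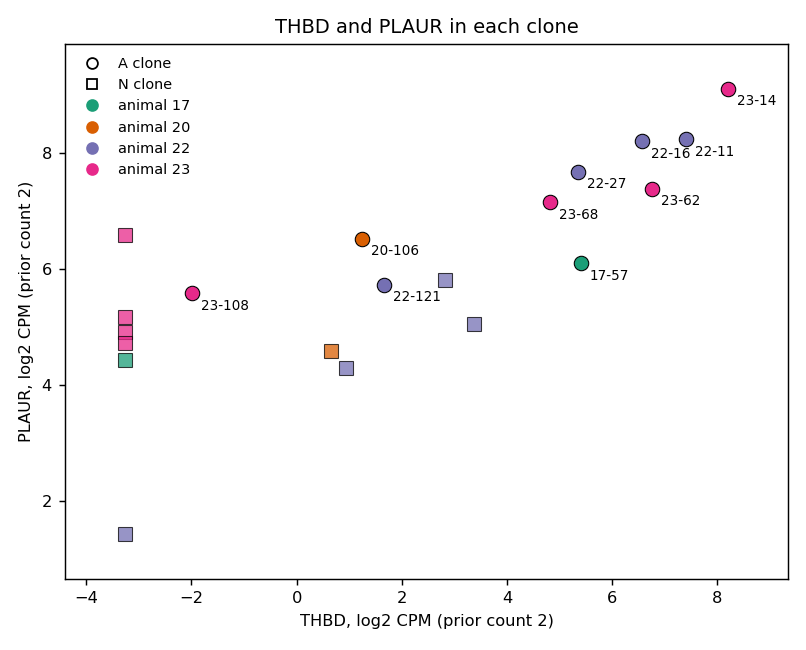
THBD on the horizontal and PLAUR on the vertical axis in each of the 20 clones, both as log2 CPM with a prior count of 2. Circles are A clones with their names, squares are N clones, colours give the animal, and the column of squares at the left holds the N clones with 0 counts of THBD. The A clones 20-106, 22-121 and 23-108 lie among or near the N clones in both genes.

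Relations within a group were examined for 4 pairs that act together, in A and in N clones separately, with a two-sided permutation test of log2 CPM over 10 clones. None of the 8 relations passed after adjustment over the 8. PLAT and its inhibitor SERPINE2 had the largest coefficients, with r = 0.691 in A (permutation p = 0.0213, rho = 0.612, p = 0.0671) and r = 0.684 in N clones (permutation p = 0.0343, rho = 0.636, p = 0.0539), and an adjusted p of 0.137 for both. Without the 2 clones farthest from the median of PLAT these were 0.620 and 0.449. Centred within animal, in the 8 clones of each kind from animals 22 and 23, they were 0.349 and 0.315.

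PLAU and PLAUR were related with r = 0.243 in A (permutation p = 0.496, rho = 0.382, p = 0.277) and -0.543 in N clones (permutation p = 0.103, rho = -0.576, p = 0.0906), which became 0.580 and -0.621 without the 2 farthest clones. Adjusted p-values were 0.544 and 0.172. For F3 and TFPI, r was 0.533 in A (permutation p = 0.107, rho = 0.333, p = 0.348) and 0.604 in N clones (permutation p = 0.0653, rho = 0.430, p = 0.217), with an adjusted p of 0.172 for both and r of 0.284 and 0.569 without the farthest clones. Within animals, F3 and TFPI gave -0.0802 and -0.206, so their pooled relation did not hold there. THBD and PROCR gave 0.492 in A (permutation p = 0.145, rho = 0.394, p = 0.262, 0.5497 without the farthest clones) and -0.220 in N clones (permutation p = 0.544, rho = -0.164, p = 0.647, -0.492 without them), where 6 clones were tied at 0 counts of THBD. Adjusted p-values were 0.194 and 0.544.

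Beyond the members, 59 genes of the same system were listed in 6 groups by role, of which 58 were in the table and 31 were tested. At an adjusted p under 0.05, 4 were higher and 2 were lower in A clones, against the 10.3% in each direction over all genes, and 25 did not pass. Their median log2 fold change was 0.10. Of 17 procoagulant factors and cofactors, 6 were at 0 in all clones and 4 were tested, of which 0 passed. F5, the cofactor of the prothrombinase complex, was at 317 ± 363 CPM in A and 702 ± 407 CPM in N clones (-1.68, SE 0.655, edgeR adjusted p = 0.077). In 6 A clones it was under the lowest N value. F8 was at 11.0 and 10.8 CPM (0.02, SE 0.139, adjusted p = 0.949). PLG, which encodes plasminogen, was at 0.217 and 0.222 CPM and was not tested.

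Thrombin and protease receptors were 4 genes, of which 2 were tested and both were higher in A clones. F2R, the main thrombin receptor PAR1, was low in both groups, which did not overlap, from 1.06 to 5.23 CPM in A and from 0 to 1.04 CPM in N clones, with 0 counts in 4 N clones. Its means were 2.52 ± 1.38 and 0.195 ± 0.322 CPM (log2 fold change 4.17, SE 0.631, edgeR adjusted p = 0.000795). The lowest A value thus exceeded the highest N value, which was so for 0.225% of all genes tested and for 0 of the 9 members. The reverse, with A clones wholly below N clones, was found for 0.093% of genes and for 0 members. F2RL2, a co-receptor for thrombin, was at 28.1 ± 7.53 and 15.3 ± 8.12 CPM (0.94, SE 0.268, edgeR adjusted p = 0.0225). The call of F2R was lost in 3 of 35 alternatives and that of F2RL2 in 6 of 36, including those without animal 22, without animal 23 and without the 5 clones over 100 CPM of KRT8 (adjusted p = 0.177, 0.174 and 0.108).

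Of 8 fibrinolysis inhibitors, 7 were in the table and 3 were tested, and 0 passed, with 1 at an unadjusted p under 0.05. THBS1, an adhesive glycoprotein that also binds plasmin, was at 4633 ± 2226 CPM in A and 3310 ± 3881 CPM in N clones (0.99, SE 0.473, edgeR adjusted p = 0.141). SERPINI1, or neuroserpin, which inhibits tissue plasminogen activator, was at 4.66 ± 1.73 and 11.8 ± 14.8 CPM (-1.06, SE 0.553, edgeR adjusted p = 0.177).

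In the vitamin K cycle and factor secretion all 9 genes were tested, 2 were higher and 1 was lower. VKORC1 and VKORC1L1, which regenerate reduced vitamin K, were at 75.3 ± 17.5 and 54.1 ± 10.6 CPM in A against 45.3 ± 9.70 and 31.7 ± 5.84 CPM in N clones. Their log2 fold changes were 0.71 (SE 0.123, edgeR adjusted p = 0.00175) and 0.78 (SE 0.0815, edgeR adjusted p = 5.05e-05), and the calls were lost in 4 and 2 of 36 alternatives. PDIA3, a disulfide isomerase, was lower by -0.27 on the log2 scale (698 ± 94.6 against 840 ± 111 CPM, SE 0.0912, edgeR adjusted p = 0.0478), and 30 of 36 alternatives did not keep this call. P4HB, its paralog, was at 1096 ± 158 and 1034 ± 122 CPM (0.09, adjusted p = 0.552).

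Among 12 genes for plasminogen and its surface receptors, 9 were tested and 1 was lower. S100A10, which binds plasminogen together with annexin A2, was at 187 ± 67.4 CPM in A and 311 ± 92.5 CPM in N clones (-0.70, SE 0.222, edgeR adjusted p = 0.0345), and 17 of 36 alternatives did not keep this call. Its partner ANXA2 was at 2860 ± 474 and 2751 ± 518 CPM (0.05, adjusted p = 0.757), and LRP1, which clears protease and inhibitor complexes, was at 3162 ± 373 and 2905 ± 805 CPM (0.13, adjusted p = 0.553). Of 9 anticoagulant factors 4 were tested and 0 passed, also at an unadjusted p under 0.05. ANXA5 was at 1373 ± 303 and 1176 ± 376 CPM and PROS1, the cofactor protein S, at 389 ± 189 and 469 ± 130 CPM.

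Markers of other cell types were read beside these genes because THBD is known from endothelium and mesothelium. Of 8 endothelial markers 4 were tested and 0 passed, CLDN5 was at 0 in all clones, and CDH5 and KDR averaged at most 0.129 CPM in either group. The summed endothelial level was 5.25 to 70.3 CPM in A (median 9.93) and 1.19 to 41.8 CPM in N clones (median 5.65), and VWF, the highest over all 20 clones, was at 5.86 ± 4.01 and 7.29 ± 11.2 CPM. The highest sum was in the A clone 17-57, where EMCN was at 56.1 CPM, against at most 10.7 CPM in any other clone. EMCN did not pass (0.37, SE 0.717, edgeR adjusted p = 0.736). PECAM1 was at 3.91 ± 5.21 CPM in A and 1.11 ± 2.15 CPM in N clones (2.49, SE 0.938, edgeR adjusted p = 0.0675), with its highest levels in the A clones 22-11 and 22-16 (16.3 and 9.51 CPM), and its part in the difference of THBD was not tested. Of 7 macrophage markers 6 were in the table and 1 was tested, CD68, which was higher in A clones at 3.62 ± 1.47 against 1.72 ± 0.812 CPM (1.06, SE 0.281, edgeR adjusted p = 0.0157). PTPRC, which defines leukocytes, averaged at most 0.0253 CPM. The untested CSF1R, a macrophage growth factor receptor, was at 1.01 ± 0.628 CPM in A and 0.0975 ± 0.0941 CPM in N clones, with no overlap between them, and in a fit with no filter its adjusted p by edgeR was 0.00268 and that of CD14 was 0.0417. The summed macrophage level was 2.82 to 12.6 CPM in A (median 8.58) and 0.885 to 10.7 CPM in N clones (median 2.49). The part of these markers in the results was not tested.

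Of 8 smooth muscle and pericyte markers 7 were tested and 3 were higher in A clones, namely MYH11 (3.04, SE 1.05, edgeR adjusted p = 0.0484), CSPG4 (1.76, SE 0.450, adjusted p = 0.0134) and NOTCH3 (2.99, SE 0.635, adjusted p = 0.00521). TAGLN, the highest over all 20 clones, was at 3197 ± 669 and 2174 ± 918 CPM (0.55, SE 0.223, adjusted p = 0.0836), and RGS5 was not tested. The summed level was 4428 to 11731 CPM in A and 1085 to 10057 CPM in N clones. The part of these markers in the differences of THBD and PLAUR was not tested.

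Of 8 mesothelial markers 6 were tested and 1 was lower in A clones, MSLN (-1.97, SE 0.645, edgeR adjusted p = 0.0393), at 20.3 ± 24.4 against 95.9 ± 152 CPM. The summed level was 7.73 to 1095 CPM in A and 8.82 to 9198 CPM in N clones. KRT8, the highest, exceeded 100 CPM in 5 clones, namely 22-5 and 22-9 among N clones (4779 and 2727 CPM) and 22-11, 22-16 and 23-62 among A clones (585, 446 and 159 CPM). The first of these groups held the highest PLAU of all clones and a TFPI2 of 570 and 888 CPM, where the remaining 8 of that kind spanned 49.7 to 628 CPM, with THBD at 0 and 1.80 CPM. The A clones of this kind held F3 at 51.7 to 356 CPM, against 6.54 to 53.8 CPM in the other 7, and THBD at 94.6 to 169 CPM, against 0.146 to 294.7 CPM.

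With these 5 clones left out, a choice made after seeing the data, only PLAUR among the members still passed. THBD had a log2 fold change of 6.23 (SE 2.195, edgeR adjusted p = 0.0895), and PLAT one of 1.02 (edgeR adjusted p = 0.0589). Neither fitted value was smaller than with all 20 clones. That of THBD depends on the N clones of animals 17 and 23, all at 0 counts. In animal 22 the remaining A clones held THBD at 40.5 and 3.04 CPM, and the remaining N clones at 6.94 and 10.3 CPM. Calls over all genes went from 2658 to 1076 in this fit. The fitted value of PLAU turned from -0.55 to 0.24, and that of F3 fell from 1.88 to 0.41 (edgeR adjusted p = 0.748).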

How the data were processed

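RNA was sequenced from 20 clones, 10 A and 10 N, grouped by the labels. The authors deposited raw counts per gene: per the labels and the study's methods, reads were trimmed with Trimmomatic 0.36, aligned with STAR 2.5.2b to ARS-UCD1.2 and counted with Subread 1.5.2 featureCounts, from unique reads in exons. Libraries were made with a directional kit, but the strand setting of counting is not given in the sources used here. In RefSeq models of ARS-UCD2.0, PLAUR overlaps LOC512005 (7 to 110 counts per clone), and PLAT and TFPI overlap a non-coding gene and a pseudogene that are not in the table, so such reads could be lost or shared.

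From the deposited counts, edgeR 4.0.16 (R 4.3.3) was run with TMM scaling, filterByExpr by condition, robust quasi-likelihood fits and animal as a block, with Benjamini-Hochberg adjustment over 12900 genes. The SE is the log2 fold change divided by the root of F. The thresholds were an adjusted p of 0.05 and, where stated, a fold of 2. The 1 row without a name (0.113 to 0.333% of counts) was left out. Levels are CPM; for log2 CPM the prior count was 2. Floors cover counting error only. The study's paired design is by animal: clones of the same animal deviated together, with a correlation of 0.253, 0.193, 0.241 and 0.440 in animals 17, 20, 22 and 23. Clones of 1 animal share that animal, and p-values measure the spread between clones, not between animals. The steps were tested on simulated data. DESeq2 1.42.0, limma-voom (limma 3.58.1), other scaling and filters, sums per animal and leaving out clones or animals were alternatives.

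The members and gene lists were chosen with earlier results of these data known. Genes named beyond the members were those of the lists past both thresholds, the 2 of highest mean CPM among the tested genes of each list, the 5 most like THBD, and the markers past both thresholds or highest in their list; other called list genes and genes given as single examples were chosen after their values were seen. Some items are not reported here.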

Additional observations from a re-analysis of the deposited data

Results flagged for a closer look

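In 5 of 48 groups of 10 clones, 1 clone lay apart from the others, its gap to the nearest clone divided by the whole range of log2 CPM exceeding Dixon's 95% critical value. Chance gives this in about 1 of 20 groups. PLAUR was lowest in the N clone 22-5, at 2.60 CPM, where the remaining N values were 19.5 to 95.5 CPM (gap 0.555). The same clone was lowest in ANXA5, at 395 CPM against 789 to 1637 CPM (gap 0.487). Among A clones, F2RL2 was lowest in 23-14, the clone with the highest THBD and PLAUR, at 14.9 CPM against 24.6 to 43.1 CPM (gap 0.47). LRP1 was lowest in the A clone 22-16, at 2366 CPM against 2963 to 3710 CPM (gap 0.5), and ANXA2 was highest in the A clone 20-106, at 4011 CPM against 2337 to 3056 CPM (gap 0.504).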

How the results depend on the processing

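The main counts were 3 members, 6 listed genes and 5 markers past the adjusted p. Among members, DESeq2 with the replicate block called 5, counts summed per animal and condition 0, animal 22 alone 0, animal 23 alone 1, animal 23 left out 0, and the fit without the 5 clones over 100 CPM of KRT8 called 1. Over all genes, which gave 2658 calls, these fits called 3528, 0, 153, 800, 32 and 1076. Among listed genes these were 0 for summed counts, 1 without animal 23, 1 in animal 22 alone, and 4 without the KRT8 clones or without animals 17 and 20. Among markers, 9 were called by DESeq2, 3 with at least 10 counts in every clone, 0 for summed counts, 0 without animal 23, 0 in animal 22 alone, 1 in animal 23 alone and 2 without the KRT8 clones. Leaving out 1 clone gave 2 to 4 members, 4 to 8 listed genes and 3 to 8 markers. In animals 17 and 20, leaving out either clone takes the animal out of the difference, so those fits nearly repeat the fit without that animal. Without the replicate block there were 2 members (PLAT lost, adjusted p = 0.199), 5 listed genes and 3 markers, and the block changed no other call of a member. THBD kept its call in every fit that left out 1 clone (log2 fold change 5.47 to 6.43, adjusted p 0.00719 to 0.0242) and lost it in 5 of 14 other alternatives, including limma-voom (adjusted p = 0.164), with a range of 3.07e-07 to 0.342 over all alternatives. It was not tested with at least 10 counts in every clone or in animal 23 alone.

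Several log2 fold changes that had not passed turned sign. F3 was -0.35 with summed counts, and TFPI was 0.48 in animal 22 alone. TFPI2 was -0.11 without animal 20, -0.017 without animal 22, -0.74 in animal 23 alone and -0.22 without animals 17 and 20. It was -0.11 to 0.30 when 1 clone was left out. There 22-18 turned it, as did 20-15 and 20-106, either of which takes animal 20 out of the difference. PLAU was 0.037 with summed counts, 0.015 without animal 22 and 0.24 without the KRT8 clones. Centred within animal, r became 0.540 for THBD and PROCR in N clones, and -0.0802 and -0.206 for F3 and TFPI in A and N clones. The sign of the first rests on the N clones of animal 22 alone, since those of animal 23 all held 0 counts of THBD. The cause of these changes was not tested. The difference between animals 22 and 23 gave 0 members past the threshold in all 19 alternatives, with 2 at an unadjusted p under 0.05 by edgeR and 0 past adjustment by DESeq2. Summing counts leaves 4 animals, and animal 22 or 23 alone leaves 4 clones a group. The lack of counts in 6 N clones limits the precision of THBD.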

Other observations

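Some genes of the same system did not pass the filter on low counts and were not tested, and they were noticed after their values were seen. SERPINB2, encoding PAI-2, an inhibitor of urokinase, was at 18.8 ± 41.7 CPM in A and 0.031 ± 0.097 CPM in N clones (SD, n = 10 each), with 9 A values over the highest N value. Its highest level, 135 CPM, was in 23-14, the clone that was also highest in THBD and PLAUR. In a fit with no filter its log2 fold change was 9.22 (SE 1.32, edgeR adjusted p = 0.000793), a value that depends on the prior count because 9 N clones held no counts. F13A1, the subunit of factor XIII that cross-links fibrin, was at 7.60 ± 12.5 CPM in A and 0.078 ± 0.229 CPM in N clones, with 38.1, 16.4, 15.6 and 3.82 CPM in 17-57, 23-14, 23-108 and 23-68 and at most 0.729 CPM in any other clone. In the fit with no filter its log2 fold change was 6.03 (SE 0.970, edgeR adjusted p = 0.00145).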
